A study of Ailuropoda melanoleuca with 25 samples.

Results

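A set of 81 gene models, of 22924 in the deposited tables, was off in giant panda (Ailuropoda melanoleuca) fibroblasts and early in reprogramming, and on by day 24 of stage I and afterwards. The members were chosen on the level in CPM, the estimated counts of a model per 1000000 estimated counts of its library, averaged by group. A member lay below 1 CPM in LB PF, XR PF and stage I day 8, and at 5 CPM or more in stage I day 24, stage II day 8, LB GPiPSC and XR GPiPSC. Levels in these 7 groups are therefore a description of how the set was made, and carry no test. The other 5 groups, with 10 libraries, were not used in the choice.

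Reprogramming turns a differentiated cell such as a fibroblast into an induced pluripotent stem cell, by bringing in pluripotency factors, here on episomal vectors that stay outside the chromosomes. In mouse and human cells fibroblast genes are lost early, an epithelial program follows, and the genes of the pluripotency network come on in steps, some in the middle of the process and some only in established lines. A83-01 blocks the type I receptors of the TGF-beta and activin family, a pathway that favours a mesenchymal state in fibroblasts, and CHIR99021 inhibits GSK3 and so activates Wnt signalling through beta-catenin. The files give gene models by an assembly identifier only, and 0 of the 22924 identifiers occurred in the RefSeq gene table used here. No member could be given a gene name or a role, and pluripotency and fibroblast markers could not be looked up.

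Messenger RNA was sequenced in 25 libraries of 12 groups. A83-01 day 16 was set against control day 16, BACL-CHIR99021 against BACL control, and BACL LB GPiPSC beside LB GPiPSC. The course ran over primary fibroblasts (LB PF and XR PF), the day 8 and day 24 libraries of stage I, the day 8 libraries of stage II, and the panda induced pluripotent stem cells (LB GPiPSC and XR GPiPSC). LB GPiPSC had 3 libraries and every other group 2. All libraries have primary fibroblast cells as their source in the labels, which leave LB, XR and BACL unexplained. Compound doses, and the line or stage behind the day 16 libraries and those of both BACL-CHIR99021 and its control, are not given there. The titles of the stage I and stage II libraries name neither LB nor XR. Depth was between 8627983 and 14890260 estimated counts a library. Replicates correlated between 0.963 and 0.998 in log2(CPM + 1) across models, and none were identical. The chi-square statistic of their counts, divided by its degrees of freedom, lay between 1.20 (BACL LB GPiPSC) and 112 (XR PF), where 1 is sampling noise. It was 1.52 in BACL-CHIR99021 and 1.58 in BACL control, and 27.6 in A83-01 day 16 and 2.24 in control day 16. The labels do not state whether replicates came from different cultures, and the p-values below reflect the spread among libraries, which may be technical. In the fit of all 12 groups that spread is estimated over all groups and not only those compared. A member that was not called is thus not shown to be unchanged. LB GPiPSC replicate 3 stood over 2-fold from the mean of replicates 1 and 2 in 12 of the 81 members, and in 402 of the 10825 models at 5 CPM or more in both LB and XR GPiPSC. The rule applied without it gave 79 models, all of them members.

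**Figure D1:**
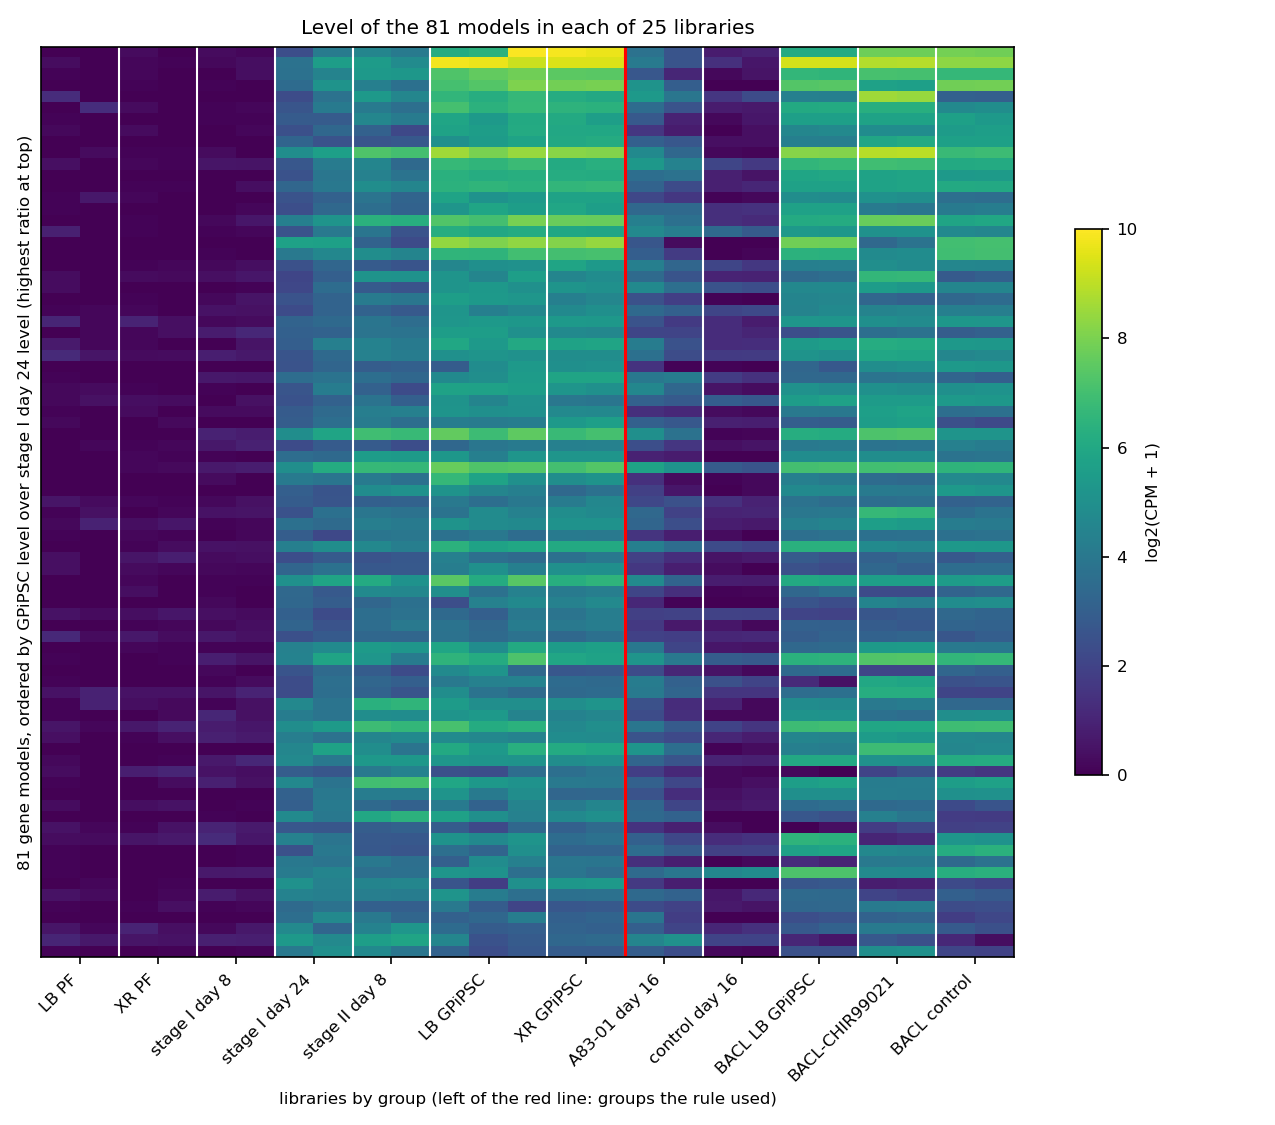
Level of each of the 81 models (rows) in each of 25 libraries (columns, grouped) as log2(CPM + 1). The rows are ordered by the ratio of the GPiPSC level to the stage I day 24 level, and the red line parts the 7 groups of the rule from the 5 groups it did not use. The A83-01 day 16 columns are brighter than the control day 16 columns in most rows.

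In fibroblasts and at stage I day 8 the models were close to undetected. The median level over the 81 was 0.0408 CPM in LB PF, 0.0703 CPM in XR PF and 0.150 CPM at stage I day 8. A floor of 3 counts corresponds to 0.201 to 0.348 CPM in these libraries. At stage I day 24 the median was 10.5 CPM, at stage II day 8 15.6 CPM, in LB GPiPSC 32.9 CPM and in XR GPiPSC 30.0 CPM. The models nearest to the thresholds stood at 0.927 CPM in stage I day 8 and at 5.07 CPM in stage I day 24, and the nearest ones outside at 1.02 CPM and 4.91 CPM. Most models that missed the rule by 1 condition missed it at these same groups, 62 by stage I day 8 and 48 by stage I day 24. Of the 81 members, 38 met both thresholds in every library and not only on average. The 2 libraries of stage I day 24 differed, and 60 members reached 5 CPM in replicate 1 against 77 in replicate 2, while 41.6% and 49.5% of all models did. Without replicate 2 the rule found 61 models, 60 of them members, and without replicate 1 it found 87, of which 77 were members.

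Most of the set had a higher level in CPM in GPiPSC than at day 24. In 41 of the 81 the group mean was higher at stage II day 8 than at day 24 and higher again in the mean of LB and XR GPiPSC. In 22 it was lower at stage II day 8 than on both sides, in 14 it was highest at stage II day 8, and in 4 it was lower at each step. The GPiPSC level was over 2-fold above the day 24 level in 55 members, within 2-fold in 23 and over 2-fold below it in 3, with a median ratio of 2.91. These folds have no test, since the rule set both ends. CPM is also not scaled for library composition. The TMM factors, which make that adjustment in the tests, were 1.24 to 1.33 in the LB and XR GPiPSC libraries. They were lower in every stage I day 24 and stage II day 8 library. Dividing by them would lower the GPiPSC levels relative to both, and could change the orders and fold classes. These were not counted on scaled levels, and the ratio was not taken over all models.

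**Figure D2:**
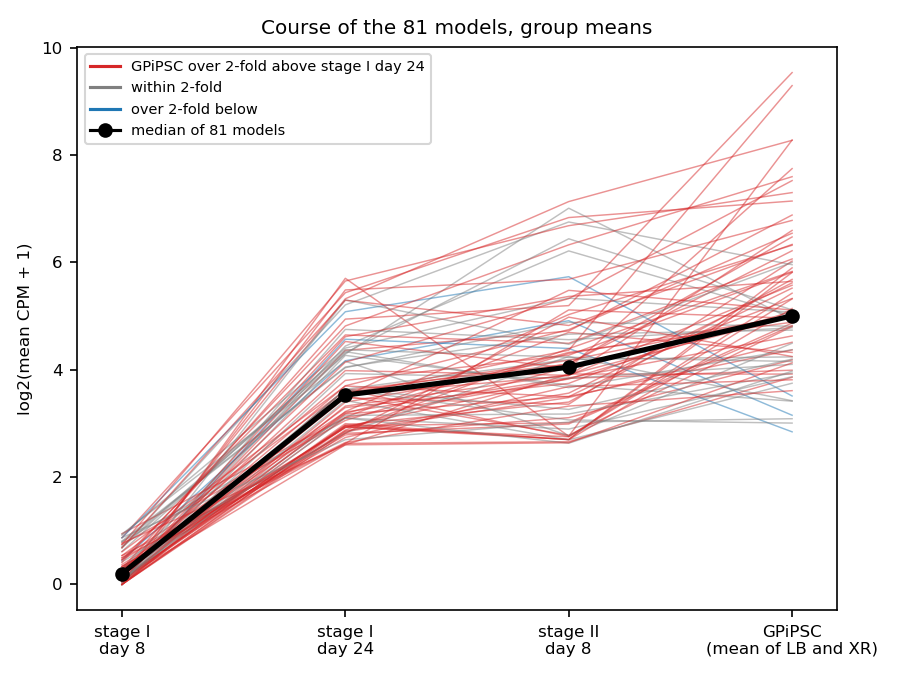
Group mean level of each of the 81 models as log2(mean CPM + 1) at stage I (day 8 and day 24), stage II (day 8) and in GPiPSC, with the median in black. Red lines (55 models) end over 2-fold above their day 24 level, grey lines (23) within 2-fold and blue lines (3) over 2-fold below.

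The model with the highest mean CPM over the 5 GPiPSC libraries was evm.model.HIC_ASM_3.2436, with a coding length of 5919 bases. It had 12.7 and 46.9 CPM at stage I day 24, 44.3 and 27.0 CPM at stage II day 8, 907, 826 and 580 CPM in LB GPiPSC and 709 and 719 CPM in XR GPiPSC. Its level in every GPiPSC library was over 10 times that in every earlier library, so the model was on at day 24 but far below its GPiPSC level. In the 6 fibroblast and stage I day 8 libraries it never passed 0.288 CPM, or 4 counts.

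The second, evm.model.HIC_ASM_6.216 with a coding length of 2037 bases, had widely different levels among the pluripotent libraries. It had 4.29 and 16.8 CPM at stage I day 24 and 22.6 and 16.6 CPM at stage II day 8. In LB GPiPSC it had 69.5, 84.6 and 986 CPM, and in XR GPiPSC 921 and 827 CPM. The high value in LB GPiPSC belonged to replicate 3, which for this model lay with XR GPiPSC and not with replicates 1 and 2. Over the members, replicate 3 was nearer to the XR GPiPSC mean than to that of replicates 1 and 2 in 39 of 81 (48.1%). Among the 10825 models at 5 CPM or more in both GPiPSC groups the share was 52.1%. BACL LB GPiPSC had 68.0 and 67.9 CPM, at the level of LB GPiPSC replicates 1 and 2, while BACL-CHIR99021 had 223 and 221 CPM and BACL control 237 and 230 CPM. Per length, this model was the higher of the pair in XR GPiPSC, at 280 TPM against 63.6 TPM for evm.model.HIC_ASM_3.2436 (TPM, like CPM but corrected for a model's effective length). The same pair had the smallest ratios of stage I day 24 to GPiPSC, 0.0168 for evm.model.HIC_ASM_6.216 and 0.0401 for evm.model.HIC_ASM_3.2436.

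At the other end, evm.model.HIC_ASM_5.376 and evm.model.HIC_ASM_16.1514 had the largest ratios of stage I day 24 to GPiPSC, 3.68 and 3.16. The first had 15.3 and 30.2 CPM at stage I day 24, 25.8 and 14.3 CPM at stage II day 8, 7.93, 4.20 and 5.69 CPM in LB GPiPSC and 6.50 and 6.33 CPM in XR GPiPSC. The second had 40.8 and 24.97 CPM at stage I day 24, 47.6 and 56.9 CPM at stage II day 8, 23.0, 4.68 and 6.37 CPM in LB GPiPSC and 9.07 and 9.84 CPM in XR GPiPSC. In both models all 4 stage libraries from day 24 on lay above all 5 libraries of LB and XR GPiPSC. The first was the member nearest to the threshold in LB GPiPSC, with a mean of 5.94 CPM. It was also high in BACL-CHIR99021, with 30.0 and 32.2 CPM, against 3.27 and 2.93 CPM in BACL control.

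The day 16 libraries asked whether inhibition of TGF-beta receptors changed these cells, and no day 16 library took part in the choice of members. The set stood higher with A83-01 than in the control, and by how much differed between the A83-01 libraries. The median level was 6.18 CPM in A83-01 day 16 and 0.636 CPM in control day 16. In A83-01 day 16, 77 of the 81 models had a mean of 1 CPM or more and 47 of 5 CPM or more, against 30 and 5 in control day 16. By library, 51 members in A83-01 replicate 1 and 34 in replicate 2 were at 5 CPM or more, against 5 in each control library. Among all 22924 models the shares at 5 CPM or more were close, 49.8% in A83-01 day 16 and 47.6% in control day 16. In 22 members the mean was at 5 CPM or more in A83-01 day 16 and below 1 CPM in control day 16. Fewer cells with a given transcript and less of it per cell cannot be told apart in bulk RNA.

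In the test across all models (edgeR, adjusted p under 0.05), 63 of the 81 were higher in A83-01 day 16 than in control day 16 and none was lower, while 4.19% of all tested models were higher and 2.04% lower, 6.22% in either direction. All 81 passed the count filter, as did 17225 models in all. The filter ran over all 25 libraries, so the groups chosen to be high let members pass whatever their day 16 counts. In a fit of the 4 libraries compared alone, 69 of the 81 were tested. At an unadjusted p under 0.05 in either direction, 79 of the 81 passed, against 2758 of the 17225 tested models. Among the 79 was evm.model.HIC_ASM_10.363.1, which was lower with A83-01 (log2 fold change -1.22). All 63 higher members changed over 2-fold and 53 of them over 4-fold, while the share of all called models past these folds was not counted. The median log2 fold change over the 81 was 3.0, or 2.83 with the 7 members that had no count in control day 16 set to their lower bound, against 0.04 over all tested models. Of the 18 that were not called, 16 still had the higher mean in A83-01 day 16.

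**Figure D3:**
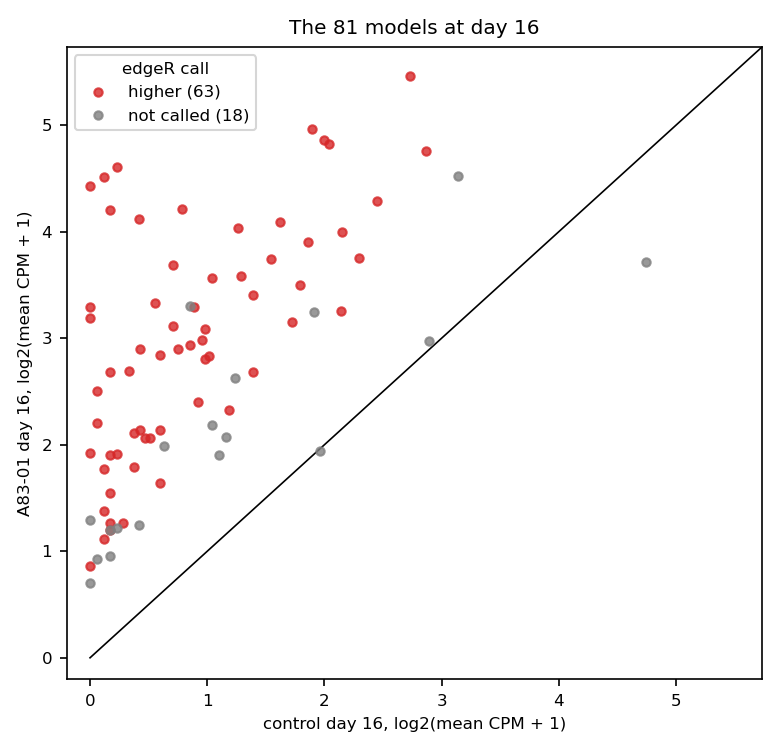
Mean level of the 81 models in A83-01 day 16 (vertical) against control day 16 (horizontal), both as log2(mean CPM + 1) over 2 libraries, with the line of equal levels. The 63 models called higher by edgeR (red) lie above the line, and of the 18 not called (grey) only 2 lie below it.

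Models with a related history are set beside the members here, without a test of the difference. Of the 2679 tested models below 1 CPM in LB PF, XR PF and stage I day 8, 254 were higher with A83-01 (9.48%) and 22 lower. That list holds all 81 members, so the 254 include the 63 members that were higher. Of the 20 models below 1 CPM in both PF and at 5 CPM or more from stage I day 8 onwards, 8 were higher and 1 lower, and 13 of them already had 5 CPM or more in control day 16. Another list of 54 models lay below 1 CPM in both PF, stage I day 8, stage I day 24 and stage II day 8. They were at 5 CPM or more in both GPiPSC groups. Of these 54, 3 were higher and none lower. At 1 CPM or more were 16 of them in A83-01 day 16 and 8 in control day 16, and none reached 5 CPM in either.

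The 2 called models with the largest fitted fold change had no count in either control library. Their folds are lower bounds and do not rank them above members with counts in the control. The model evm.model.HIC_ASM_10.1149 had 34.0 and 7.04 CPM in A83-01 day 16 and was at 0 counts in control day 16, at least 80.5-fold higher on a floor of 3 counts per control library (edgeR adjusted p = 4.74e-05). The model evm.model.HIC_ASM_13.1060 had 9.74 and 7.82 CPM in A83-01 day 16 and was likewise at 0 counts in control day 16, at least 34.4-fold higher (edgeR adjusted p = 6.56e-05). At stage I day 24 the first had 10.2 and 33.96 CPM and the second 26.2 and 15.2 CPM, so A83-01 replicate 1 was level with the higher day 24 library for the first model, while A83-01 replicate 2, and both A83-01 libraries for the second model, lay below both day 24 libraries. Over alternatives the adjusted p ran from 6.64e-09 to 0.00819 for the first and from 3.19e-07 to 0.00247 for the second.

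A pair of members had the lower mean in A83-01 day 16, and neither passed the test in the fit of all libraries. The model evm.model.HIC_ASM_10.363.1 had 10.1 and 14.1 CPM in A83-01 day 16, against 23.7 and 27.9 CPM in control day 16, a log2 fold change of -1.22 ± 0.38 (SE; edgeR adjusted p = 0.0716). It was called lower by DESeq2 (adjusted p = 0.0359) and by edgeR on the 4 libraries alone (adjusted p = 0.0148), and over alternatives the adjusted p ran from 0.0121 to 0.469. It was the member with the highest level in control day 16, where its level was above the 16.8 and 21.6 CPM of stage I day 24. The model evm.model.HIC_ASM_2.756 averaged 2.84 CPM in A83-01 day 16 and 2.89 CPM in control day 16 (edgeR adjusted p = 0.962). These 2 models were singled out after their values were seen.

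Within A83-01 day 16, replicate 1 lay above replicate 2 in 74 of the 81 members, and the median ratio of replicate 2 to replicate 1 was 0.466. Among all models, 51.1% were at 5 CPM or more in replicate 1 and 48.2% in replicate 2. The ratio of the replicates was not taken over all models, so whether the gap is particular to the members is not known. The groups did not overlap, with both A83-01 libraries higher, in 77 members, against 41.3% of all tested models. Both A83-01 libraries were lower in 1 member, against 17.6% of all tested models, and the groups overlapped in 3. Without A83-01 replicate 1, 36 members were higher and the median log2 fold change was 2.42; without control replicates 1 or 2, 38 and 35 were higher. None was lower in these fits, in which the single library left takes its spread from the other groups. Over all models, 231 were higher without A83-01 replicate 1 and 241 and 184 without control replicates 1 or 2, against 721 with all libraries. Set beside stage I day 24, the members stood at a median of 0.446 of the day 24 level in A83-01 day 16 and 0.0513 in control day 16. These groups differ in day, and whether they share a line or stage is not given.

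In the BACL libraries most of the set was on. Means of 5 CPM or more were seen for 70 of the 81 in BACL LB GPiPSC, 74 in BACL-CHIR99021 and 69 in BACL control, where 60 reached it in all 3 groups. These are 86.4%, 91.4% and 85.2% of the members, against 94.2%, 96.1% and 93.99% of the 10825 models at 5 CPM or more in both LB and XR GPiPSC. The median level of the members was 22.5 CPM in BACL LB GPiPSC, 28.4 CPM in BACL-CHIR99021 and 23.0 CPM in BACL control.

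Beside LB GPiPSC, the level of most members was lower in BACL LB GPiPSC. The ratio of BACL LB GPiPSC to LB GPiPSC had a median of 0.661 and lay below 1 in 68 of 81 members and below 0.5 in 30, or 37.0%, while over the 10825 models at 5 CPM or more in both LB and XR GPiPSC the median was 0.947, 57.8% lay below 1 and 8.44% below 0.5. Without LB GPiPSC replicate 3 the median over members was 0.683, with 27 below 0.5. The rule used the level in LB GPiPSC, so this is a description with no test. The lowest ratios were those of evm.model.HIC_ASM_10.1383, with 0.154 and 0 CPM in BACL LB GPiPSC against 4.39, 4.20 and 10.8 CPM in LB GPiPSC, and evm.model.HIC_ASM_8.284, with 0 and 0.335 CPM against 6.46, 3.63 and 9.09 CPM. At 4 counts or fewer in each BACL LB GPiPSC library, both were near the counting floor there. The highest ratios were those of evm.model.HIC_ASM_10.363.1, with 145.1 and 145.3 CPM in BACL LB GPiPSC against 36.2, 33.3 and 11.7 CPM in LB GPiPSC, and evm.model.HIC_ASM_1.1460, with 51.2 and 58.1 CPM against 11.5, 8.23 and 30.6 CPM. In both of these the BACL LB GPiPSC libraries lay above every LB GPiPSC library.

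BACL-CHIR99021 and BACL control, neither used in the choice, were compared to see what the GSK3 inhibitor changed. Members changed in both directions. In BACL-CHIR99021 19 of the 81 models were higher and 11 lower than in BACL control (edgeR, adjusted p under 0.05), where 11.7% of all tested models were higher and 4.43% lower, 16.1% in either direction. That is 23.5% and 13.6% of the members, and 51 were not called; at an unadjusted p under 0.05, 43 passed, against 28.0% of all tested models. Every called member changed over 2-fold, and 12 rose over 4-fold, while the share of all called models past these folds was not counted. The median log2 fold change over the 81 was 0.27, within a range of -4.96 to 5.50, against 0.00 over all tested models. Among the models at 5 CPM or more in both LB and XR GPiPSC, 8.55% were higher and 5.68% lower. With limma-trend on log2(TPM + 0.1) the split of member calls was 17 higher and 4 lower, where 85.3% of the 2562 calls over all models were higher. Without BACL-CHIR99021 replicate 1 or 2, 18 and 19 members were called, among 1570 and 1539 models in all. Without BACL control replicate 1 or 2, 20 and 18 were called, among 1319 and 1332 models, where the fit of all libraries called 2773. The groups did not overlap in 48 members with BACL-CHIR99021 higher, against 47.1% of all tested models, and in 29 with it lower, against 31.6%.

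The largest rise was that of evm.model.HIC_ASM_0.1758, which had 381 and 350 CPM in BACL-CHIR99021 against 7.63 and 7.10 CPM in BACL control, a log2 fold change of 5.50 ± 0.61 (SE; edgeR adjusted p = 8.44e-06). Its level in BACL-CHIR99021 passed that of every other library, among them 94.3, 74.3 and 101 CPM in LB GPiPSC. The next, evm.model.HIC_ASM_12.1614, had 73.5 and 73.2 CPM in BACL-CHIR99021 against 3.27 and 3.15 CPM in BACL control (4.38 ± 0.48 SE; edgeR adjusted p = 4.02e-06), and between 9.71 and 28.7 CPM in the GPiPSC libraries. Over alternatives the adjusted p reached at most 0.00109 for the first and 0.000751 for the second, and at least 3.84e-81 and 5.53e-56.

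**Figure D4:**
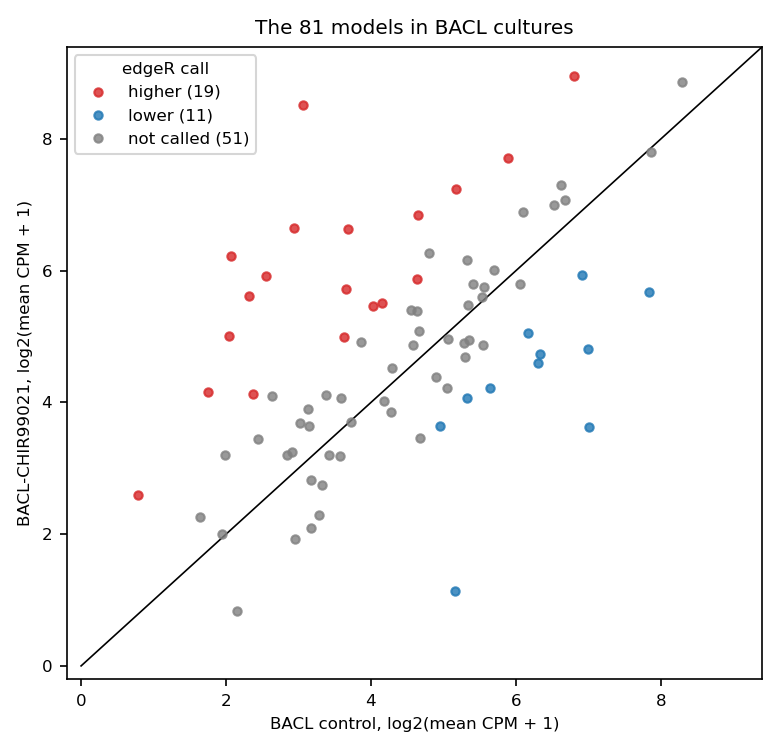
Mean level of the 81 models in BACL-CHIR99021 (vertical) against BACL control (horizontal), both as log2(mean CPM + 1) over 2 libraries, with the line of equal levels. The 19 models called higher by edgeR (red) lie above the line, the 11 called lower (blue) below it, and the 51 not called (grey) around it.

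The largest fall was that of evm.model.HIC_ASM_10.1579, with 1.06 and 1.36 CPM in BACL-CHIR99021 against 36.3 and 33.0 CPM in BACL control, a log2 fold change of -4.96 ± 0.46 (SE; edgeR adjusted p = 5.63e-07). With CHIR99021 it was at about its stage I day 8 level of 1.32 and 0.505 CPM, above the 0.232 to 0.604 CPM of the fibroblast libraries. In BACL LB GPiPSC it had 90.5 and 82.7 CPM. The model evm.model.HIC_ASM_5.606 had 9.51 and 13.1 CPM in BACL-CHIR99021 against 124 and 131 CPM in BACL control (-3.62 ± 0.61 SE; edgeR adjusted p = 0.000737). This model had no count in any fibroblast or stage I day 8 library, 51.9 and 50.4 CPM at stage I day 24, 7.77 and 3.81 CPM at stage II day 8 and between 266 and 342 CPM in the GPiPSC libraries, and no other member had so low a stage II day 8 level relative to the lower of its day 24 and GPiPSC levels. Over alternatives the adjusted p ran from 1.89e-46 to 5.92e-05 for evm.model.HIC_ASM_10.1579 and from 3.90e-61 to 0.0186 for evm.model.HIC_ASM_5.606.

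The A83-01 and CHIR99021 comparisons share no library. All 19 members higher with CHIR99021 were also among the 63 higher with A83-01, as were 9 of the 11 lower with CHIR99021, and 35 of the 63 were not called with CHIR99021. With 63 of 81 members higher with A83-01, a large overlap says little. It was not tested, and the overlap over all models was not counted.

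The members were spread over the genome. They lay on 19 of the 21 scaffolds named HIC_ASM, and none lay on the ORI scaffolds. The largest number was 9 of 1794 models on HIC_ASM_3, and the highest share 0.703% on HIC_ASM_14, against 0.353% over all models. Their coding lengths had a median of 1353 bases, against 1308 bases in the models at 5 CPM or more in both GPiPSC groups and 1017 bases in all models. Among the members, 4 pairs had consecutive numbers on a scaffold, namely 113 and 114 and 1545 and 1546 on HIC_ASM_2, 408 and 409 on HIC_ASM_7 and 501 and 502 on HIC_ASM_17. The levels of the 2 models of a pair ran alike over the 25 libraries, with a Pearson correlation of log2(CPM + 1) between 0.969 and 0.990, a description that rests on libraries in which all members were off or on together. Whether a pair is 1 gene split between models was not tested. The tables do not show which reads near-identical models share, and the 8 models of these pairs are uncertain as separate genes.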

How the data were processed

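Libraries were made from 2 μg of total RNA with the NEBNext Ultra kit, per the labels' protocols. Quantification was with kallisto, per the submitters' processing notes; for its version, its index and the genome build, the sources used here say nothing. Each deposited table lists estimated counts that need not be whole and TPM values scaled by the authors' tool to effective length and library total, per the file headers. CPM is estimated counts over the library total. For the tests, estimated counts were rounded to whole numbers.

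Sample titles gave the groups and replicate numbers. A single fit held all 25 libraries in 12 groups (13 residual degrees of freedom) in edgeR 4.0.16 under R 4.3.3, with filterByExpr, TMM scaling, robust quasi-likelihood F tests and Benjamini-Hochberg adjustment over 17225 models. Calls required an adjusted p under 0.05. SE values come from the F statistic. The edgeR step was tested on simulated data. Floors of 3 counts cover counting error only.

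Members and lists were chosen with earlier results of these data known. The models named are the 2 with the highest GPiPSC level, the 2 at each end of the ratio of stage I day 24 to GPiPSC and of BACL LB GPiPSC to LB GPiPSC, and in each test the 2 called members per direction with the largest change, at 5 CPM or more in the higher group and no overlap between groups. Marker lists by gene symbol could not be applied, since the tables hold no symbols. Gene model lengths, 91.6% of them multiples of 3, are called coding lengths. Alternatives were RLE, DESeq2 1.42.0, limma-trend 3.58.1 on TPM, no filter, fewer libraries, a replicate block and other thresholds of the rule. Leaving LB GPiPSC replicate 3 out of the BACL LB GPiPSC ratio, and counting calls over members that met the thresholds in every library, were chosen after seeing the data.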

Additional observations from a re-analysis of the deposited data

How the results depend on the processing

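Of the 81 members, 63 were called in A83-01 day 16 against control day 16, 45 to 73 under 7 other settings and 35 to 64 with 1 of the 4 libraries left out, nearly all of them higher. RLE, no filter and limma-trend gave no lower member, while DESeq2, the replicate block and a fit of the 4 libraries alone each gave 1, evm.model.HIC_ASM_10.363.1 (adjusted p = 0.0359, 0.0121 and 0.0148). The fit of the 4 libraries alone tested 69 of the 81 members. Over all models, the 7 other settings called between 900 and 2233 in this comparison, against 1072 in the fit of all libraries. In BACL-CHIR99021 30 members were called, 21 to 37 under 6 of 7 other settings, 73 (42 higher, 31 lower) with only the 4 libraries compared in the fit, and 18 to 20 with 1 library left out. That fit takes its spread from these 4 libraries only and called 10609 models in all. The 6 settings called between 2543 and 3292 models in all, against 2773 in the fit of all libraries. On TPM, limma-trend moved the median over all models in that comparison to 0.15 with a pseudocount of 1 and 0.23 with 0.1, against 0.00. The rule gave 81 models, 74 with TMM-scaled CPM, 54 with TPM, 33 with a threshold of 10 CPM, 54 with 0.5 CPM, 38 with both thresholds in every library and 61 to 87 with 1 of 15 libraries left out. Of the 33, 54 and 38 members that met the stricter thresholds, 28, 43 and 34 were higher with A83-01; of the 38, 14 were called with CHIR99021 (9 higher, 5 lower). The rule on TMM-scaled CPM shared 64 models with the members, 48 of them higher with A83-01. The TPM rule shared 30 models with the members, 24 of them higher with A83-01. A replicate block gave 63 and 32 called members against 63 and 30. Same-numbered libraries did not deviate together (correlations of -0.0045 and 0.0096 across models), and the numbers were not taken as pairing the samples. All 66 alternative values of the 6 models named in the tests kept direction and side of the threshold. Depth limits the off state, since 3 counts are 0.201 to 0.348 CPM.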
